A study of Homo sapiens with 6 samples.

Results

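The genes described here are those that carry glucose into the cell, break it down to pyruvate, turn pyruvate into lactate, or feed it to the mitochondrion through pyruvate dehydrogenase. They were chosen by name from a list of 36 genes, and 33 of these had at least 1 probe set annotated to that gene alone, out of 18244 genes tested. SLC2A3 was not analysed here because its 5 probe sets are also annotated to SLC2A14, and the lactate carriers SLC16A1 and SLC16A3 were not analysed here either, so lactate transport itself is not covered. The cells were A549, an established human lung adenocarcinoma line, grown in RPMI-1640 medium with serum. A lentivirus delivered shMRPL35, a hairpin that lowers MRPL35, to 3 samples (KD) and the control hairpin shctrl to 3 others (NC), and each sample was read on 1 Affymetrix array. MRPL35 is a component of the mitochondrial ribosome, and the series asks what its knockdown does to growth and death of lung cancer cells. The hairpin sequence, its promoter and the time after infection are not given in the sources used here. Nor do the labels say whether samples of a group were separate cultures, so every p-value rests on a spread that may be technical.

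Glycolysis splits glucose into pyruvate in the cytosol and yields a little ATP without oxygen. Lactate dehydrogenase then regenerates NAD+ by making lactate, or pyruvate enters mitochondria and is oxidised to acetyl-CoA by the pyruvate dehydrogenase complex, which its kinases switch off and its phosphatases switch on. Tumour cells commonly run glycolysis fast, and cells whose respiration is impaired depend on it. These genes therefore sit at the branch between lactate and respiration.

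MRPL35 read 6.49, 6.44 and 6.56 in the KD arrays and 8.16, 8.05 and 8.36 in the NC arrays (log2 probe-set values, replicates 1 to 3), so the target was lower in every KD array. That is a log2 change of -1.69 ± 0.096 (KD minus NC ± standard error from limma, n = 3 per group, adjusted p = 3.77e-06), which leaves 30.9% of the control signal. Arrays of the same group correlated at 0.994 or higher across genes and those of different groups at 0.976 to 0.98, and the second principal component (11.8% of the variance) set NC replicate 2 apart. The epithelial keratin genes KRT8, KRT18 and KRT19 were bright in all arrays, whereas 0 of 6 fibroblast, 0 of 4 endothelial and 0 of 4 blood markers lay above the median gene. Of the lung lineage markers, NKX2-1 (5.42) and SFTPB (5.66) lay below the median gene mean of 6.21 on the log2 scale and SFTPC (6.62) above it. Of the 8 epithelial and lung markers 4 rose in KD (KRT8, KRT18, KRT19 and CDH1) and 0 fell; EPCAM (0.21), NKX2-1 (-0.24, lower in every KD array), SFTPB (0.099) and SFTPC (-0.16) did not pass. Their summed linear level, carried by the bright keratins, was 29921 to 30707 in KD against 21129 to 22208 in NC. The dim blood marker CD14 rose too (0.60, log2). The part of these shifts in the results was not tested.

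Of the 33 genes measured, 15 rose, 3 fell and 15 did not pass the test (limma, Benjamini-Hochberg adjusted p under 0.05 over all 18244 genes). The largest rises were in ENO2, a second enolase (3.09-fold), PDK3, a pyruvate dehydrogenase kinase (2.15-fold), and PDP1, the phosphatase that opposes it (2.15-fold). The 3 falls were PFKFB3 (1.92-fold lower), ENO1 (1.32-fold lower) and PFKFB2 (1.26-fold lower), the last by its brightest probe set only: 2 of its 5 others rose. Expression was measured in bulk RNA, in which fewer cells of a kind and less RNA per cell cannot be told apart.

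The share called was 54.5% here against 33.5% of all genes, 17.6% being higher and 15.9% lower among all genes. Most of these genes are bright, and among the 10946 genes at or above the 40th percentile of mean level the share called was 49.7%, close to the 51.6% of the 31 genes here that reach that level. The number of called genes is therefore near that of other well-measured genes, and what is described below is which ones moved and by how much. The median log2 change was 0.21 over the 33 genes against -0.018 over all genes, and the changes ran from -0.94 to 1.63. Changes of at least 2-fold were called for 3 of the 33 genes, against 5.36% of all genes. The KD and NC arrays did not overlap for 19 genes that were higher and 6 that were lower in KD, against 44.7% of all genes without overlap in either direction. That share was not computed for bright genes alone, so the part of level in this difference was not tested. The number of rises lay between 9 (without KD replicate 3) and 18 (without NC replicate 2) when 1 array was left out, and the number of falls lay between 2 and 4 without any 1 array.

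**Figure D1:**
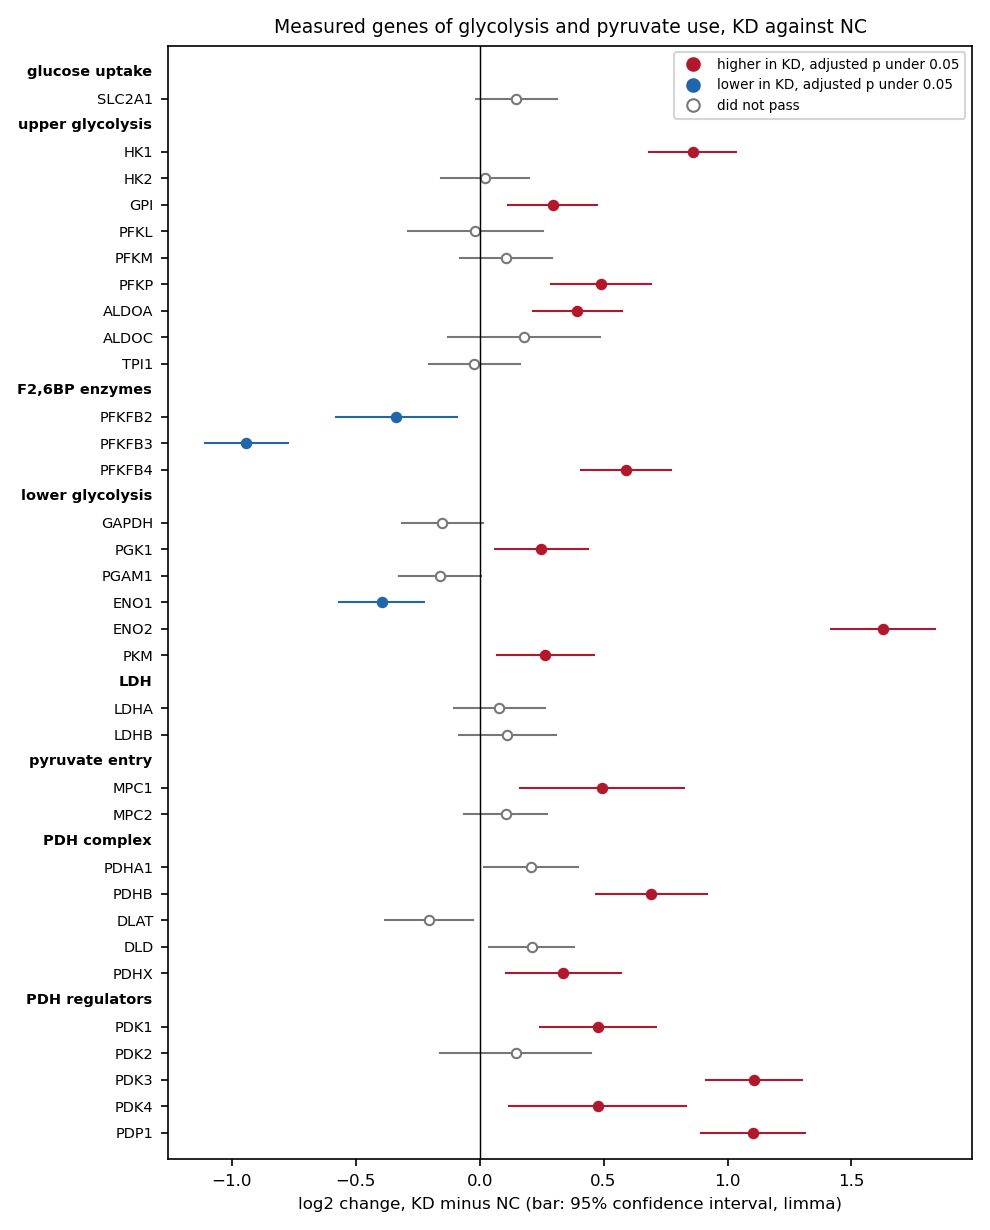
Log2 change (KD minus NC) of the 33 measured genes, grouped by their step, with 95% confidence intervals from limma (n = 3 per group); filled points passed at an adjusted p under 0.05. ENO2 stands farthest to the right at 1.63 and PFKFB3 farthest to the left at -0.94, while both lactate dehydrogenase genes lie near 0.

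At the entry of glucose HK1 rose, and SLC2A1 and HK2 did not pass. SLC2A1, the main glucose carrier GLUT1 of tumour cells, read 9.80, 9.87 and 9.85 in the KD arrays and 9.69, 9.68 and 9.70 in the NC arrays. The KD arrays lay above the NC arrays by a log2 change of 0.15, which did not pass (adjusted p = 0.166, 95% confidence interval -0.017 to 0.31), and its 3 other probe sets changed by 0.081 to 0.19 without passing. HK1, the hexokinase that traps glucose as glucose 6-phosphate and can sit on the mitochondrial outer membrane, read 10.73, 10.76 and 10.77 in KD and 9.82, 9.89 and 9.97 in NC. The groups were well separated, and HK1 rose by 0.86 ± 0.077 on the log2 scale, 1.81-fold (limma adjusted p = 4.29e-05). All 3 other probe sets of HK1 rose too, by 0.73 to 0.98. Those that rose by 0.73 and 0.75 gave the same value in KD replicate 1 (9.73) and in NC replicate 2 (8.93), so they may not be separate checks. HK2, the inducible isozyme, showed no rise like that of HK1, with a log2 change of 0.021 (95% confidence interval -0.16 to 0.20) and overlapping arrays. Its probe set was dim, with a mean log2 value of 5.60. The other probe set of HK2 was dimmer still (3.29) and changed by -0.19 without passing.

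Further along the upper part of the pathway 3 more genes rose. PFKP, the platelet-type phosphofructokinase, rose by 0.49 ± 0.089 (log2, adjusted p = 0.00236), and the muscle type PFKM (0.11) and the liver type PFKL (-0.017) did not pass. ALDOA, the main aldolase, rose by 0.39 ± 0.079 (log2, adjusted p = 0.00421), and its second probe set rose by 0.38. GPI, which turns glucose 6-phosphate into fructose 6-phosphate, rose by 0.29 ± 0.079 (log2, adjusted p = 0.0182). Leaving out KD replicate 2 (adjusted p = 0.0673), KD replicate 3 (0.0809) or NC replicate 1 (0.0650) ended the call for GPI. TPI1, which interconverts the triose phosphates, changed by -0.022 and did not pass.

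ALDOC, the aldolase best known from brain, gave different answers by probe set and is described in full for that reason, a choice made after its values were seen. The probe set that represents it read 7.07, 7.31 and 7.15 in KD and 6.81, 7.30 and 6.87 in NC, so the groups overlapped through NC replicate 2 alone. Its log2 change of 0.18 ± 0.13 did not pass (adjusted p = 0.380), but it passed without NC replicate 2, at 0.33 (adjusted p = 0.0179). The other 4 probe sets of ALDOC all rose, by 0.76 to 1.11 on the log2 scale. The next brightest of them read 7.45, 7.50 and 7.34 in KD and 6.22, 6.53 and 6.23 in NC, without overlap. Averaged over its 5 probe sets ALDOC rose by 0.83 (log2, limma adjusted p = 3.63e-05). Which transcripts each probe set reads was not tested.

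Among the enzymes that make and break fructose 2,6-bisphosphate, PFKFB3 fell and PFKFB4 rose. This sugar phosphate is the strongest activator of phosphofructokinase, and PFKFB3 is the isozyme that chiefly makes it in tumour cells. PFKFB3 read 10.21, 10.20 and 10.19 in KD and 11.10, 11.12 and 11.20 in NC. Its log2 change was -0.94 ± 0.074 (limma adjusted p = 2.10e-05), and its 3 other probe sets fell by 0.50 to 0.63. Without probe sets of x and s suffix, an alternative chosen after seeing the data, PFKFB3 is represented by the smallest of these falls (-0.50, adjusted p = 0.00453). PFKFB4, another bifunctional isozyme, read 7.28, 7.32 and 7.37 in KD and 6.83, 6.68 and 6.69 in NC, with every KD array above every NC array. PFKFB4 rose by 0.59 ± 0.080 on the log2 scale (adjusted p = 0.000474). Its 3 other, dimmer probe sets changed by -0.093 to 0.32 and did not pass, and the mean of its probe sets rose by 0.23 (adjusted p = 0.0433).

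PFKFB2, the isozyme best known from heart, cannot be given 1 direction, and its values are given for that reason, a choice made after they were seen. The probe set that represents it read 7.27, 7.18 and 7.04 in KD and 7.58, 7.30 and 7.62 in NC, which is a fall of 0.34 on the log2 scale (standard error 0.11, adjusted p = 0.0391). Leaving out any 1 array but KD replicate 1 or NC replicate 2 ended that call (adjusted p = 0.0926 to 0.153). Of its 5 other, dimmer probe sets 0 fell and 2 rose, the larger rise being from 4.23, 4.24 and 4.17 in NC to 5.35, 5.20 and 5.24 in KD. That second probe set had a log2 change of 1.05 ± 0.083 (limma adjusted p = 2.27e-05).

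**Figure D2:**
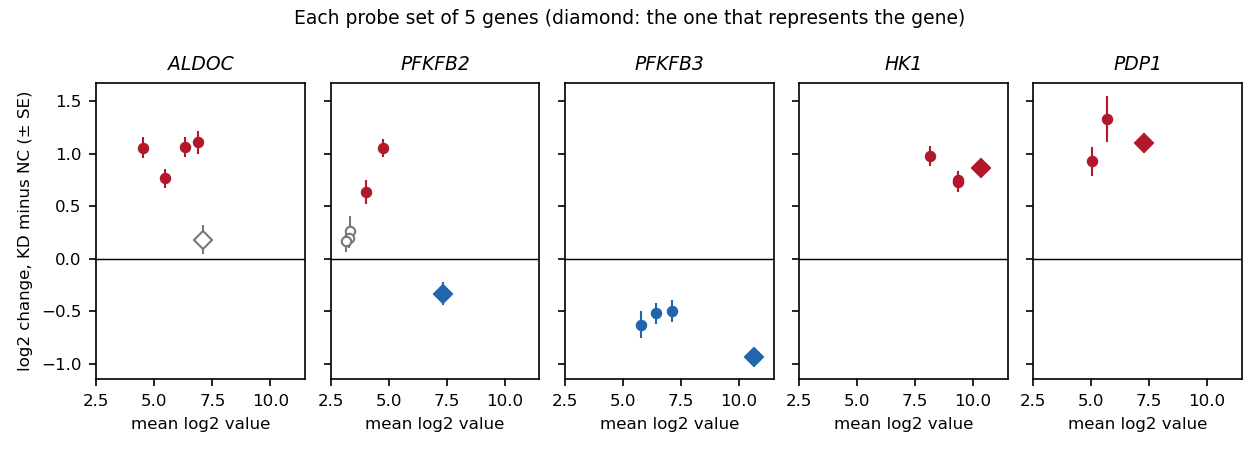
Log2 change (KD minus NC ± standard error) of every probe set of 5 genes against its mean log2 value over 6 arrays; diamonds mark the brightest probe set, which represents the gene, and filled points passed at an adjusted p under 0.05. The probe sets of PFKFB3, HK1 and PDP1 lie on 1 side of 0, those of PFKFB2 on both sides, and the brightest one of ALDOC lies below its 4 others.

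In the lower part of glycolysis ENO2, PGK1 and PKM rose and ENO1 fell. Enolase makes phosphoenolpyruvate, the last step but 1 before pyruvate, and ENO1 is the form present in most cells while ENO2 is best known from neurons. ENO2 read 9.34, 9.34 and 9.31 in KD and 7.54, 7.74 and 7.83 in NC, a rise of 1.63 ± 0.092 on the log2 scale (limma adjusted p = 3.77e-06). It was represented by a single probe set. ENO1 read 12.19, 12.21 and 12.18 in KD and 12.53, 12.66 and 12.57 in NC, so each KD array was lower. ENO1 fell by 0.40 on the log2 scale (standard error 0.075, adjusted p = 0.00308), and its second probe set fell by 0.38. The log2 difference between ENO1 and ENO2 changed by -2.02 from NC to KD, without overlap between the arrays (exact permutation test, two-sided, p = 0.1, the smallest that 3 against 3 can give).

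The promoters of these enolase genes are shown because the pair moved in opposite directions and ENO2 had the largest rise. Both are the 250 bases before the RefSeq start of the gene (GRCh38.p14), at chr12:6914330-6914579 on the plus strand for ENO2 and chr1:8878687-8878936 on the minus strand for ENO1. Capitals mark matches, on either strand, to ACGTG, a form of the core of the hypoxia response element. ACGTG is also held within the E-box CACGTG bound by MYC.
ENO2: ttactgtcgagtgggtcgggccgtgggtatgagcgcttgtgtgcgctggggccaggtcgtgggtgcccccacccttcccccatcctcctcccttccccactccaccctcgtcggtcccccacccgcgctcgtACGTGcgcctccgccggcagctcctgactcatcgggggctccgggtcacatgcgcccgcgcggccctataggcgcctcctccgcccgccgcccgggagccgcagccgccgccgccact
ENO1: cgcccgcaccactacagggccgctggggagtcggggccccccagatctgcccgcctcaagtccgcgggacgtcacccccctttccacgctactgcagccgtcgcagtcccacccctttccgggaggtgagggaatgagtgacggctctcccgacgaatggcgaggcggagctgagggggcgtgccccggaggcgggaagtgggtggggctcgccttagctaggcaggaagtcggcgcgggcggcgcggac
The ENO2 promoter holds 1 match to ACGTG, which begins 118 bases before the start, and the ENO1 promoter holds 0. The other form of that core, GCGTG, was not searched, and its letters stand unmarked in the ENO1 sequence. Of all 35116 RefSeq promoters of this length, 18.5% hold ACGTG, and 6.34% hold CACGTG. Among 59 promoters of 31 of the genes measured here, 21 hold ACGTG (35.6%) and 8 hold CACGTG (13.6%), and some of these are neighbouring starts of 1 gene. By call, ACGTG was found in 11 of 27 promoters of genes that rose, 1 of 3 of genes that fell and 9 of 29 of genes that did not pass. The 1 among the falls is a promoter of PFKFB3. A match to these letters is a description of the sequence and does not show that a factor binds there.

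The other steps to pyruvate changed little. PGK1, which makes the first ATP of the payoff phase, rose by 0.25 ± 0.083 (log2, adjusted p = 0.0467), and 5 of its 8 other probe sets rose. That call held without NC replicate 2 but was lost without any 1 of the 5 remaining arrays (adjusted p = 0.0684 to 0.151). PKM, the pyruvate kinase, rose by 0.26 ± 0.086 (log2, adjusted p = 0.0428), but 1 of its 4 other probe sets passed and the mean of all 5 did not (0.17, adjusted p = 0.0745). Among these 4, the dim ones with mean log2 values of 3.38 and 3.31 changed by 0.0016 and -0.018, and the brighter ones by 0.38 and 0.24. The PKM call was also lost without any 1 array but KD replicate 1 or NC replicate 2 (adjusted p = 0.0920 to 0.181). The splice forms of PKM were not told apart here.

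GAPDH and PGAM1 were slightly lower in every KD array but did not pass. GAPDH, often used as a reference gene, read 13.41, 13.44 and 13.43 in KD and 13.55, 13.60 and 13.57 in NC, a log2 change of -0.15 (adjusted p = 0.154). Its control probe sets changed by -0.16 at the 5' end, -0.15 in the middle and -0.088 at the 3' end, and none of the 3 passed. RNA integrity shows in the 3' minus 5' control difference, which averaged 0.086 ± 0.035 over the KD arrays against 0.012 ± 0.050 over the NC arrays (log2, SD, n = 3 each). Its part in this result was not tested. PGAM1, the phosphoglycerate mutase, changed by -0.16 (log2, adjusted p = 0.138), and its 3 other probe sets by -0.15 to -0.12.

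The lactate dehydrogenase genes did not pass in either direction. LDHB, the subunit that favours lactate use, read 12.95, 12.93 and 12.96 in KD and 12.93, 12.70 and 12.88 in NC, and the groups overlapped. Its log2 change of 0.11 had a 95% confidence interval of -0.085 to 0.31. LDHA, the subunit that favours lactate production, changed by 0.079 (log2, 95% confidence interval -0.10 to 0.26), and its 3 other probe sets by 0.080 to 0.13. For the log2 difference between LDHA and LDHB the groups differed by -0.032 (exact permutation test, two-sided, p = 0.9).

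Of 2 genes of pyruvate entry 1 rose, and of 5 genes of the pyruvate dehydrogenase complex 2 rose and 0 fell. The 40% called in the complex lay between the 33.5% of all genes and the 49.7% of genes at or above the 40th percentile of mean level. MPC1, a subunit of the mitochondrial pyruvate carrier, read 5.47, 5.32 and 5.62 in KD and 5.18, 4.65 and 5.11 in NC, with NC replicate 2 lowest. MPC1 rose by 0.49 ± 0.14 (log2, adjusted p = 0.0274), a call that rests on 1 dim probe set and was lost without KD replicate 1 (adjusted p = 0.0722) or KD replicate 3 (adjusted p = 0.105). Its partner MPC2 changed by 0.11 (log2, adjusted p = 0.343).

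PDHB, the beta subunit of the E1 component that decarboxylates pyruvate, read 9.84, 9.82 and 9.66 in KD and 9.16, 8.92 and 9.17 in NC. No KD array reached down to the NC arrays, and PDHB rose by 0.69 ± 0.099 (log2, 1.62-fold, limma adjusted p = 0.000606). PDHX, which anchors the E3 component, rose by 0.34 ± 0.10 (log2, adjusted p = 0.0314), a call lost without any 1 of the 3 KD arrays (adjusted p = 0.0616 to 0.117), and its second probe set did not pass (0.22). PDHA1, the alpha subunit that the kinases phosphorylate, did not pass at 0.21 (log2, adjusted p = 0.0913), but 3 of its 4 other probe sets did, at 0.25 each. DLD, the E3 component shared with other dehydrogenases, behaved likewise, with 0.21 (adjusted p = 0.0613) and 3 of 6 other probe sets higher. DLAT, the E2 core, pointed the other way at -0.20 (log2, adjusted p = 0.0805), and its 5 other probe sets lay between -0.17 and -0.036 without passing. Without NC replicate 2 the representative probe sets of PDHA1 (0.26, adjusted p = 0.0249), DLD (0.22, adjusted p = 0.0485) and DLAT (-0.25, adjusted p = 0.0276) passed.

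Regulators of the complex rose on both the inhibiting and the activating side. Of 4 kinases and 1 phosphatase, 4 genes rose and 0 fell, where 17.6% of all genes rose, and the call for PDK4 was lost in most fits without 1 array. PDK3, a kinase that inactivates the complex, read 6.84, 6.70 and 6.80 in KD and 5.65, 5.60 and 5.78 in NC. The groups were far apart, and PDK3 rose by 1.11 ± 0.085 (limma adjusted p = 1.89e-05, 1 probe set). PDP1, the catalytic subunit of the phosphatase that reactivates the complex, read 7.89, 7.79 and 7.76 in KD and 6.85, 6.59 and 6.69 in NC. PDP1 rose by 1.10 ± 0.092 (log2, limma adjusted p = 2.85e-05), and its other 2 probe sets rose by 0.93 and 1.33.

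The other kinases rose less or did not pass. PDK1, known as a target of the hypoxia factor HIF1, rose by 0.48 ± 0.10 (log2, adjusted p = 0.00624) on a dim probe set, with KD arrays at 4.48 to 4.76 and NC arrays at 4.07 to 4.29. Its second, dimmer probe set changed by 0.23 and did not pass. PDK4, the kinase induced by fasting, rose by 0.48 ± 0.16 (log2, adjusted p = 0.0452), with KD arrays at 7.31 to 7.57 and NC arrays spread from 6.58 to 7.24. That call was lost without any 1 array other than NC replicate 1 (adjusted p = 0.0682 to 0.151), and its change was 0.31 without NC replicate 2. Its second probe set did not pass (0.40). PDK2 did not pass at 0.14 (log2, adjusted p = 0.492), although 1 of its 2 other probe sets did at 0.31, and it passed without NC replicate 2, at 0.31 (adjusted p = 0.0127). The rise of PDK1 differed from that of PDK3 by -0.63 on the log2 scale (exact permutation test, two-sided, p = 0.1, the smallest possible here).

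**Figure D3:**
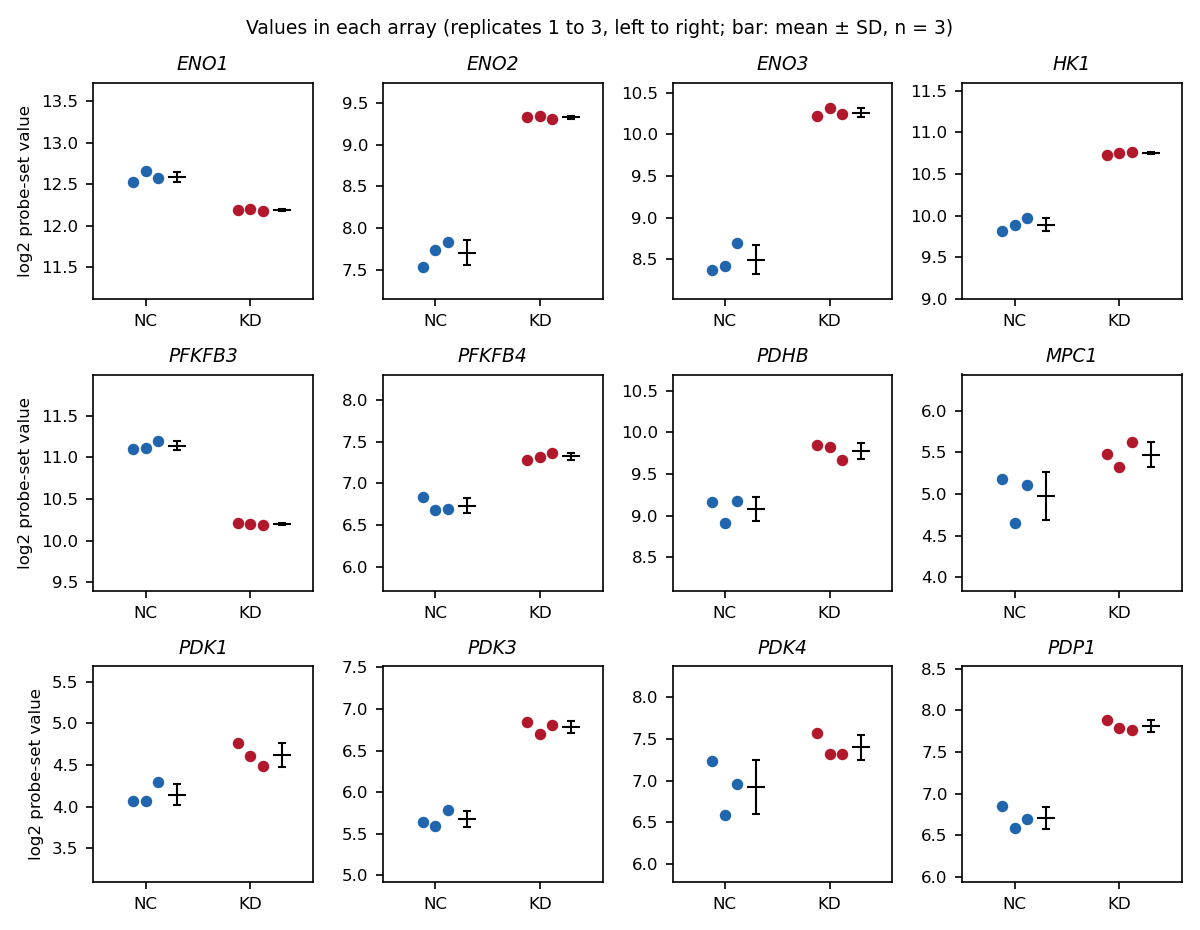
Log2 probe-set values of 12 genes in each NC and KD array, each panel spanning 2.6 log2 units, with mean ± SD (n = 3) beside the points; levels are not comparable between panels. KD arrays lie above NC arrays in every panel except those of ENO1 and PFKFB3, where they lie below.

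Promoters of PDK3 and PDHB are shown as those of the kinase and the complex subunit that rose most. They are the 250 bases before the RefSeq start (GRCh38.p14), at chrX:24465036-24465285 on the plus strand for PDK3 and chr3:58433833-58434082 on the minus strand for PDHB, with matches to ACGTG on either strand in capitals.
PDK3: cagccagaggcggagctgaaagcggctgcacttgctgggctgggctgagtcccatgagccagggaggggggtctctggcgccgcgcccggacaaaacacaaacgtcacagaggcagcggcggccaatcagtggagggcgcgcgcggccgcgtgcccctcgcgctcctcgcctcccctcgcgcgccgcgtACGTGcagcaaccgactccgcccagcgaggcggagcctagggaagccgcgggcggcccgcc
PDHB: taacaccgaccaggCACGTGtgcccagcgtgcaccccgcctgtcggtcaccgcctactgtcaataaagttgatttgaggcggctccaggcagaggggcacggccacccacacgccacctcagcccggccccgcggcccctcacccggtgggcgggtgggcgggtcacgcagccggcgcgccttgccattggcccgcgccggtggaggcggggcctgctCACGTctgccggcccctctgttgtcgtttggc
The form GCGTG was not searched here either, and its letters stand unmarked in both sequences. PDK3 holds 1 match to ACGTG, which begins 61 bases before the start. PDHB holds 3, of which those beginning 236 and 235 bases before the start overlap within 1 CACGTG and the third begins 32 bases before the start.

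Isozymes of 1 step, and the carrier subunits MPC1 and MPC2, were compared as the per-array log2 difference between both genes. There were 12 pairs, each with an exact two-sided permutation test. With 3 arrays per group this exact test cannot go below p = 0.1 for any pair, or 0.171 after Benjamini-Hochberg adjustment over the 12 pairs, so no pair passed. The separation of HK1 from HK2 (0.84) and of PFKP from PFKM (0.38) reached that smallest p with every KD array above every NC array. PFKFB3 fell relative to PFKFB4 in every KD array as well (-1.53, p = 0.1 by the exact test), by -0.88 with the mean of each gene's probe sets. With that mean ALDOA against ALDOC turned from 0.21 to -0.45. ALDOA and ALDOC (p = 0.2 by the exact permutation test), PDK1 and PDK2 (p = 0.2) and PFKL and PFKM (p = 0.5) overlapped.

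Among 54 measured genes around this pathway, 15 rose, 9 fell and 30 did not pass, or 44.4% called against the 33.5% of all genes. Of 24 other isozymes and carriers 5 rose and 1 fell, or 25% called, below the 33.5% of all genes. The median level of this list lay at the 34th percentile. ENO3, the enolase best known from muscle, read 10.22, 10.32 and 10.24 in KD and 8.37, 8.42 and 8.70 in NC, and rose by 1.76 ± 0.10 (log2, 3.40-fold, limma adjusted p = 3.98e-06), with both other probe sets higher by 1.81 and 2.01. SLC2A6, a lysosomal member of the glucose carrier family, rose by 1.22 ± 0.086 (log2). SLC16A4, a relative of the monocarboxylate carriers, rose by 0.99 ± 0.093 (log2), as did its 3 other probe sets, and LDHD, the D-lactate dehydrogenase, rose by 0.56 ± 0.10 (log2). PDPR, BSG and PCK2 fall outside the rule for named genes and were chosen after their values were seen. PDPR, the regulatory subunit that restrains the phosphatase, fell by 0.48 on the log2 scale (standard error 0.084, limma adjusted p = 0.00208), but of its 2 other probe sets neither passed, at -0.28 and 0.26. BSG, the chaperone of lactate carriers, did not pass at -0.11.

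Of 19 measured genes of gluconeogenesis and side branches, 8 rose and 2 fell, or 52.6% called, close to the 49.7% of all genes at or above the 40th percentile of level. TIGAR, a p53-induced phosphatase that lowers fructose 2,6-bisphosphate, rose by 1.23 ± 0.082 (log2, 2.35-fold, limma adjusted p = 9.39e-06), and its second probe set by 0.92. PC, pyruvate carboxylase, which sends pyruvate to oxaloacetate, rose by 1.11 ± 0.12 (log2, 2.16-fold), but its second, slightly dimmer probe set changed by 0.16 without passing. The glycogen-making genes GBE1, the branching enzyme (1.04 ± 0.12), and GYS1, glycogen synthase (0.93 ± 0.10), rose on the log2 scale. The glycogen-breaking phosphorylases PYGL (0.42 ± 0.11, limma adjusted p = 0.0174) and PYGB (0.32 ± 0.083, limma adjusted p = 0.0159) rose too. Of the 4 other probe sets of PYGB 1 passed. Both phosphorylases fall outside the rule for named genes. PCK2, the mitochondrial phosphoenolpyruvate carboxykinase, fell by 0.89 on the log2 scale and its second probe set by 0.74.

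Of 11 measured transcription factors known to act on this pathway, 2 rose and 6 fell (72.7% called, against 33.5% of all genes and 49.7% of those at or above the 40th percentile). FOXK2, a forkhead factor, was counted as a fall (-0.42, log2), but its second probe set rose by 0.26 (adjusted p = 0.0377). MYC, an activator of many glycolytic genes, fell by 1.15 (standard error 0.093) and its partner MAX by 0.66 (standard error 0.088), both on the log2 scale; 3 of the 11 other probe sets of MAX fell and 0 rose. PPARGC1A, a coactivator of mitochondrial biogenesis, fell by 1.04 (log2, standard error 0.092), but its 3 other probe sets did not pass. The brightest of these changed by -0.74, and the dim ones, with mean log2 values of 3.47 and 3.43, by 0.010 and -0.051. EPAS1, the hypoxia factor HIF2 alpha, rose by 0.50 ± 0.099 (log2, limma adjusted p = 0.00385). HIF1A, named here after its values were seen, rose by 0.41 ± 0.091 (log2, limma adjusted p = 0.00717), and all 7 of its other probe sets rose, by 0.55 to 0.94.

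**Figure D4:**
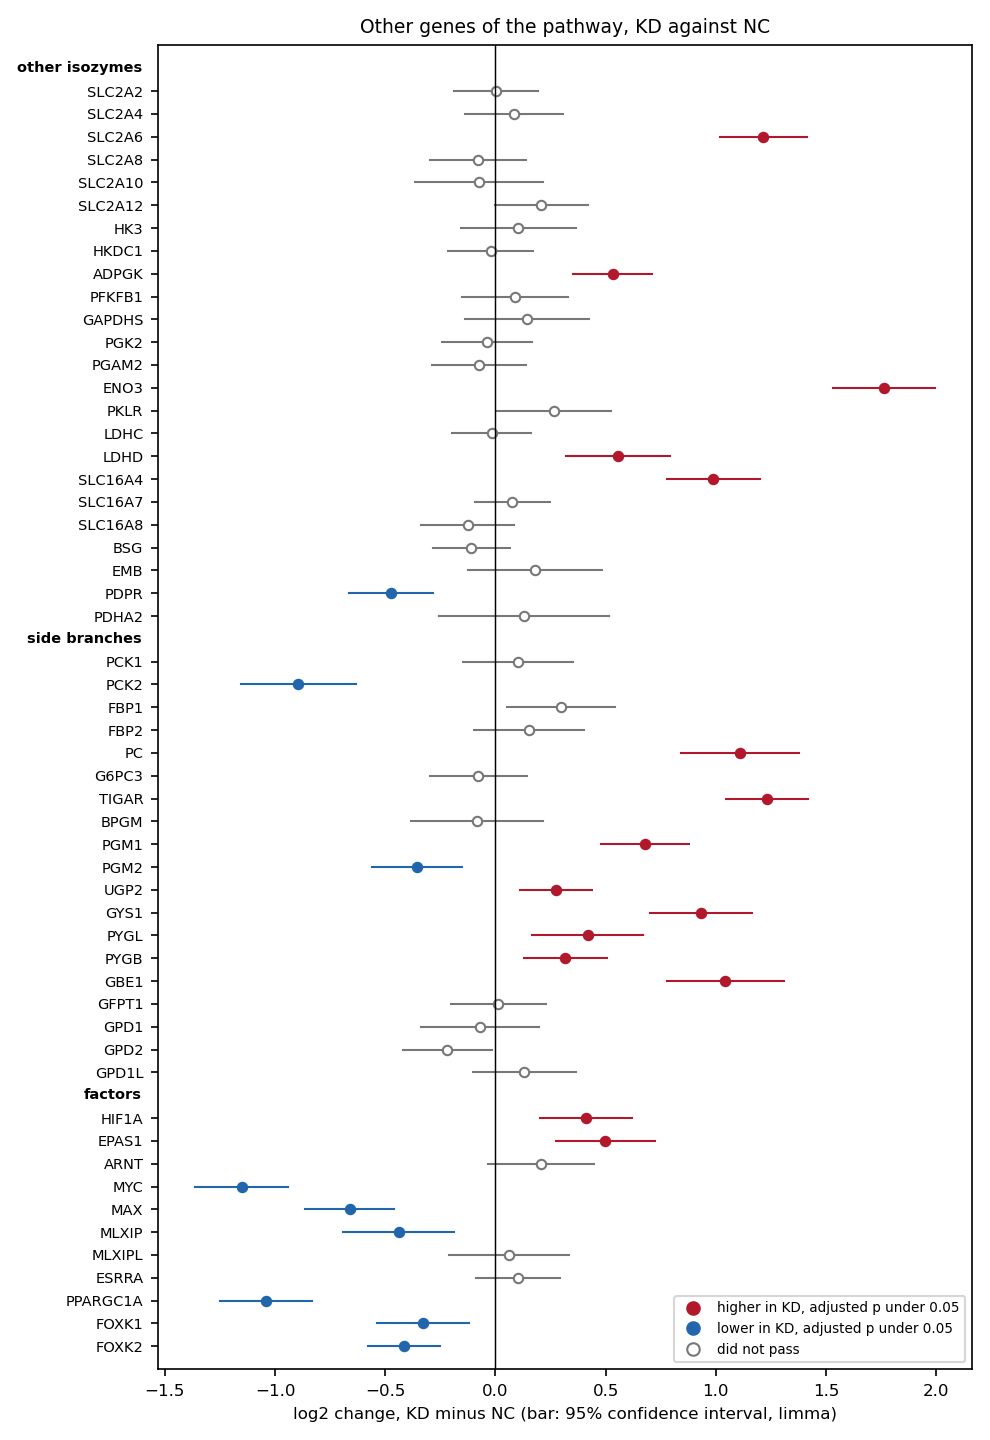
Log2 change (KD minus NC) of 54 measured genes around the pathway with 95% confidence intervals from limma (n = 3 per group); filled points passed at an adjusted p under 0.05. ENO3, TIGAR and SLC2A6 lie farthest to the right, and MYC and PPARGC1A farthest to the left.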

How the data were processed

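The values are log2 probe-set values as deposited by the authors for 6 arrays and 49395 probe sets. No log base is stated, and it was read from the range (up to 14.3, array medians 5.49 to 5.55); the authors' summarisation and normalization are not given in the sources used here. A shift common to all genes would not show, and dim values may be compressed. Samples were grouped by title; the source names of NC replicates 2 and 3 carry other cell line numbers, but their characteristics give A549. The platform annotation gave 45278 probe sets 1 symbol, 1333 several and 2682 none, with 102 controls.

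Each of 18244 genes was represented by its single-symbol probe set with the highest mean over the 6 arrays, and other probe sets were tested over all probe sets as a check. Whether probe sets of a gene share probes was not tested, so their agreement may not be independent. Genes were fitted with limma 3.58.1 (lmFit, eBayes, two-sided, group as the only term) in R 4.3.3, with Benjamini-Hochberg adjustment and a threshold of 0.05. The fit was run on simulated data with independent noise, in which far fewer genes changed than were called here. That run therefore does not check the calls reported. No scanner background was used, and 3 arrays per group limit the precision.

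The genes, lists and tests were chosen with earlier results of these data known. Values in every array are given for genes that passed with an absolute log2 change of at least 0.5 and for the smallest p of each step, and related genes are named up to 4 per list by size of change; per-array values of ALDOC, PFKFB2, ENO1 and GAPDH were added after they were seen, as said of other exceptions in the text. Alternatives were quantile normalization, median centring, array weights, trend with robust fitting, a replicate block and averaging each gene's probe sets. Further ones dropped probe sets by suffix where a gene had others, genes below the 40th percentile, or each array in turn. The alternative for linear values did not apply.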

Additional observations from a re-analysis of the deposited data

How the results depend on the processing

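Over 15 alternatives, of which 6 leave out 1 array, 11 of the 18 calls kept their direction and side of the threshold wherever the gene was tested: HK1, PFKP, ALDOA, PFKFB3, PFKFB4, ENO1, ENO2, PDHB, PDK1, PDK3 and PDP1. Genes with only suffixed probe sets kept them when suffixes were dropped. Leaving out x, s and a suffixes therefore left the probe set and the change of each of these 11 genes as they were. For PFKP, ENO2, PDHB and PDK3, with 1 probe set each, averaging probe sets changed no values either. Those fits are no separate check of these genes. PDK1 and MPC1 were not tested with dim genes left out. The other 7 calls, GPI, PFKFB2, PGK1, PKM, MPC1, PDHX and PDK4, were lost or turned under at least 1 alternative, and 7 of the 15 genes that did not pass did so under at least 1. The number of falls was 5 with trend and robust fitting, which added GAPDH and PGAM1. Leaving out 1 array gave 9 to 18 rises and 2 to 4 falls. The mean of all probe sets turned PFKFB2 to 0.33, HK2 to -0.083 and PFKL to 0.038, and leaving out x, s and a suffixes turned PFKFB2 to 1.05 and MPC2 to -0.21. PFKL was 0.22 without x and s suffixes, an alternative chosen after seeing the data, and 0.081 with array weights, and HK2 -0.0012 with median centring. Leaving out 1 array, PFKL lay between -0.14 and 0.090, HK2 between -0.013 and 0.054 and TPI1 between -0.073 and 0.025; HK2, PFKL, MPC2 and TPI1 passed in none of these. The cause of these differences was not tested. The labels do not say that replicate numbers pair samples, so the numbers were not taken as pairs. Deviations of same-numbered KD and NC arrays from their group means correlated at 0.254, 0.265 and -0.0963, which cannot decide it with so few arrays. With the replicate block 14 genes here rose and 3 fell, and PGK1 lost its call (0.25, limma adjusted p = 0.0735). Signal over background was not measured, which limits the dim genes PDK1 and MPC1 most.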
